A study of Mus musculus with 20 samples.

Results

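The genes described here are the protein-coding genes of mouse chromosome 3 whose start lies between positions 85000000 and 96000000 in the mm10 coordinates of the count table. The interval was taken because it holds Muc1, Trim46, Tpm3, Bcan and Selenbp2, which were chosen by their levels in Ager-/- libraries against WT libraries. A gene was kept if it had at least 10 counts in at least 3 of the 20 libraries, and genes whose names start with S100, Rps, Rpl or Hist, together with Fcrls and Mcl1, were left out. This gave 164 genes of the 54532 in the table. Of the 269 protein-coding genes in the interval, 89 were under the count minimum and 16 were left out by name. Because the interval was selected on the Ager-/- against WT contrast, all values from that contrast, and from Ager-/- against Ager AHA/AHA, which uses the same Ager-/- libraries, are given as a description, with no p-value for any member. The tests below concern the Ager AHA/AHA knock-in against WT and lung against neutrophils.

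The libraries came from mice labelled C57BL/6 with 3 genotypes of Ager, the gene for the receptor RAGE. WT mice carried no engineered allele. Ager AHA/AHA mice are homozygous for point mutations in the heparan sulfate-binding site of RAGE, introduced by Cas9 in eggs of C57BL/6J mice, and the Ager-/- line (Agertm1.1Arnd) was obtained from another laboratory, so the line's origin and the loss of Ager cannot be told apart in its libraries. Neutrophils (PMN) were washed from a dorsal air pouch 4 hr after injection of 1 µg of LPS in 0.5% carboxymethyl cellulose, with 3 libraries of each genotype. Lungs were perfused and came from mice with no treatment named, with 3 WT, 4 Ager AHA/AHA and 4 Ager-/- libraries. No source used here gives the ages of these mice. The study describes the libraries of a genotype as biological replicates from several mice, and the labels do not say whether a neutrophil and a lung library came from the same mouse.

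Total counts per library ran from 16764589 to 24818703. The interval's genes took 0.375 to 0.430% of the counts in neutrophil libraries and 0.873 to 0.934% in lung libraries. In lung, Ager stood at 2401 ± 430 CPM (SD, n = 3) in WT, 2068 ± 575 (n = 4) in Ager AHA/AHA, with 28.0 ± 2.06 (n = 4) for Ager-/-, where CPM are counts relative to the library's total, on the usual scale of this unit, after TMM scaling within a tissue. In neutrophils Ager had only 15 to 101 counts per library and was not lower in the Ager-/- libraries, so it does not check their labels. The summed level of 10 neutrophil markers was 34206 to 57411 CPM in neutrophil libraries and 47.1 to 382 CPM in lung, and that of 7 alveolar type 2 markers was 38420 to 50770 CPM in lung and 1.36 to 4.87 CPM in neutrophils.

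The interval is gene-dense and mixes families with unlike functions. Muc1 encodes a transmembrane mucin of epithelial surfaces, and Trim46, which lies tail to tail with it, encodes a tripartite motif protein known from the axons of neurons. Tpm3 encodes a tropomyosin that winds around actin filaments, Bcan the proteoglycan brevican of the brain matrix, and Selenbp1 and Selenbp2 a pair of closely related selenium-binding proteins. Other members encode ephrin-A ligands, lysosomal proteases such as cathepsins S and K, mitochondrial and RNA-processing proteins, and chromatin regulators.

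Sequences are shown for the genes on which the description turns. The promoter of Muc1 was taken from RefSeq (GRCm38.p6), in which 136 of the 164 genes had an entry, and covers the 250 bases before the RefSeq start, at chr3:89228806-89229055 on the plus strand. Capitals mark TATAAA and GGGCGG on either strand. These letters were searched together with CACGTG, which had no match there.
Muc1 promoter: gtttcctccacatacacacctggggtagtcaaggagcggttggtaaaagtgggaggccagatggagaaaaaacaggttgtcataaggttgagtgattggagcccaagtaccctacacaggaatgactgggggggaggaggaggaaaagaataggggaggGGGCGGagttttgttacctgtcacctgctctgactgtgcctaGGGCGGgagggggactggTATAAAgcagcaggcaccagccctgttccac
The first base of TATAAA stands 31 bases before the start, and the matches to GGGCGG begin 91 and 49 bases before it. Of 32851 promoter windows of this length, 12.4% held TATAAA, 32.7% GGGCGG and 6.02% CACGTG.

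The promoter of Bcan is shown because it lacks the TATA letters of Muc1 and because Bcan was the gene whose levels most resembled those of Selenbp2. Both genes were chosen by their levels in Ager-/- libraries, so this likeness follows at least in part from the choice and is only a description. It lies at chr3:88000357-88000606 on the minus strand (GRCm38.p6, RefSeq), and capitals mark its 1 match to GGGCGG, which is read on the opposite strand.
Bcan promoter: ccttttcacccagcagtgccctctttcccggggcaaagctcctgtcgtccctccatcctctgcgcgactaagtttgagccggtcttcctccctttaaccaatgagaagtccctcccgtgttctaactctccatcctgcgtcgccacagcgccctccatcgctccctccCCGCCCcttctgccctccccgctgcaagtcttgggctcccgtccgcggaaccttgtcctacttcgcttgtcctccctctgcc

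Upstream windows of Selenbp1 and Selenbp2 are shown because these neighbours differ widely in level. The windows were picked as the pair with the fewest differences among the offsets tried. They lie at chr3:94932936-94933055 and chr3:94693436-94693555, both on the plus strand (GRCm38.p6, RefSeq), from 147 to 28 bases before the RefSeq start of Selenbp1 and from 137 to 18 before that of Selenbp2, and capitals mark the bases that differ.
Selenbp1 promoter: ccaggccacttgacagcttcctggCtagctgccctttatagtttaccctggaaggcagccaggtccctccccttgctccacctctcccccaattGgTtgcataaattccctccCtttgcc
Selenbp2 promoter: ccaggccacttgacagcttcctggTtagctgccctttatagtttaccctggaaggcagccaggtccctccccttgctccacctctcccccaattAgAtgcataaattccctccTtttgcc
The windows differ at 4 of 120 bases, which is 96.7% identity. This is the highest identity found and not that of the whole upstream regions. The closest pair of their coding sequences of equal length has 1416 bases and differs at 18 of them (98.7% identity).

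Tpm3 has a copy, Tpm3-rs7, on chromosome 14 (113314608 to 113316754, plus strand), which lies outside the interval and is shown because its level changed where that of Tpm3 did. The first 150 coding bases of each are shown from the GENCODE transcripts of GRCm38, with the exons of Tpm3 joined (between 90079732 and 90086463 on chromosome 3) and capitals at the bases that differ.
Tpm3 coding stretch: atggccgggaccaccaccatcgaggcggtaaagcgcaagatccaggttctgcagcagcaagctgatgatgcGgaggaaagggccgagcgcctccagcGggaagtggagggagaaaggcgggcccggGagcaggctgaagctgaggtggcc
Tpm3-rs7 coding stretch: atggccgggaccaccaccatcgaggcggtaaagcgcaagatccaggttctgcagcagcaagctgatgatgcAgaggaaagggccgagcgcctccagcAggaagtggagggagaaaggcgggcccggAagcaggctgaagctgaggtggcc
These transcripts are the closest pair with coding sequences of equal length. Their 744 coding bases are 99.6% identical, and all 3 of the differences lie in this stretch. Other transcripts of Tpm3 are not described. No source used here says how reads that match several genes were counted, so the split of reads between the copies is uncertain.

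To see where in the interval levels differed, the log2 fold change of each gene was set against its distance from the start of Muc1. In neutrophils 118 of the 164 genes, and in lung 162, passed edgeR's filter on low counts. Of these, 19 neutrophil genes (9 higher, 10 lower) and 12 lung genes (6 higher, 6 lower) had an adjusted p under 0.05 in Ager-/- against WT. Over all genes tested, 6.65% were higher and 4.01% lower in neutrophils, and 1.45% were higher and 1.64% lower in lung. The groups did not overlap for 44 members in neutrophils (35.6% of all genes) and for 44 in lung (15.8% of all genes). Nothing is read from these counts, because the rule used this contrast. The genes next to the borders were Fbxw7 outside (log2 fold change 0.28 in neutrophils, -0.29 in lung) and Gatb inside (0.13 in lung) at the lower end, and Vps45 inside (0.55, -0.04) and Otud7b outside (-0.63, 0.31) at the upper end. The count minimum had no gene with exactly 3 libraries inside it, and Gm38392 and Dcst2, with 2 libraries each, stood just outside with 91 and 88 counts over the 20 libraries.

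**Figure D1:**
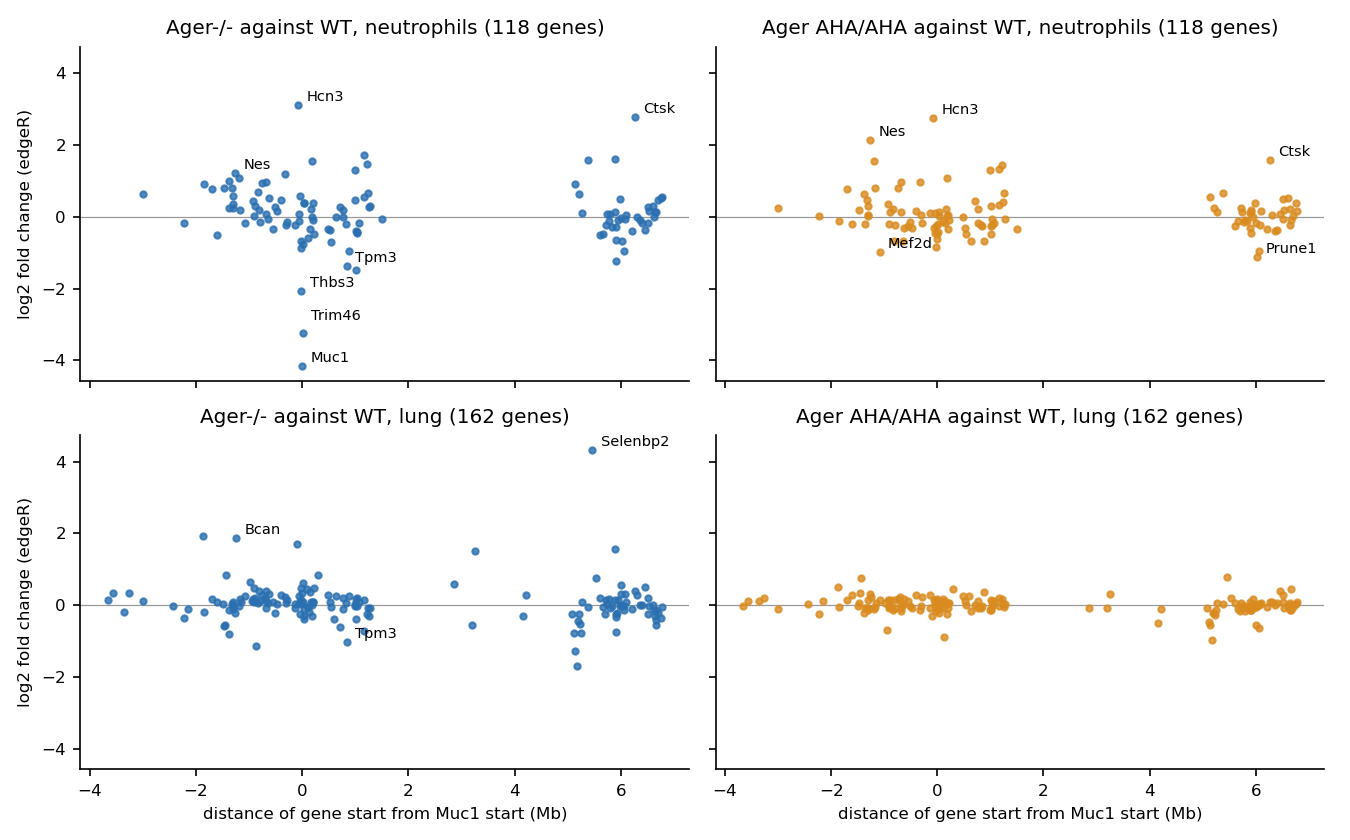
Log2 fold change of each interval gene against WT (vertical axes) by the distance of its start from that of Muc1 in Mb (horizontal axes), for Ager-/- (left) and Ager AHA/AHA (right) in neutrophils (top, 118 genes) and lung (bottom, 162 genes). Each point is 1 gene. In Ager-/- neutrophils Muc1 lies at -4.15 and Trim46 at -3.23 on the log2 scale, and in Ager-/- lung Selenbp2 lies at 4.32.

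Muc1, at 89229057 to 89233381 on the plus strand, was far lower in Ager-/- neutrophils and not in Ager-/- lung. In neutrophils its level was 23.6, 25.2 and 17.03 CPM in WT replicates 1, 2 and 3, 16.5, 15.5 and 15.4 CPM in Ager AHA/AHA replicates 2, 4 and 6, and 1.12, 1.39 and 1.18 CPM in Ager-/- replicates 1, 4 and 6. The Ager-/- libraries lay far below all others, with 23 to 32 counts per library against 277 to 408. The log2 fold change was -4.15 ± 0.22 (SE) against WT and -3.67 ± 0.22 against Ager AHA/AHA. In lung, where Muc1 is abundant, it was 228 ± 30.6 CPM (SD, n = 3) in WT, 215 ± 8.74 (n = 4) in Ager AHA/AHA, with 289.7 ± 60.2 (n = 4) for Ager-/-, a log2 difference of 0.34 ± 0.14 (SE) from WT. The WT and Ager-/- lung libraries overlapped, with 194 to 254 CPM in WT and 243 to 378 CPM in Ager-/- libraries.

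Trim46 (89234177 to 89246309, minus strand) followed Muc1. Its neutrophil levels were 6.73, 8.03 and 6.38 CPM in WT, 5.11, 5.03 and 5.52 in Ager AHA/AHA, and 0.86, 0.652 and 0.72 CPM in Ager-/- libraries, a log2 fold change of -3.23 ± 0.25 (SE) for Ager-/- against WT. In lung every Ager-/- library (8.43 to 12.3 CPM) was above every WT library (5.18 to 7.01 CPM), so the order was the opposite of that in neutrophils. Part of Trim46 overlaps Krtcap2 on the other strand, and since the strand setting is not given, reads there cannot be assigned with certainty. Krtcap2, an accessory subunit of the oligosaccharyltransferase, was taken for its place and not by the rule for named genes. It stood at 4.98 ± 1.22 CPM (SD, n = 3) in WT and 2.92 ± 0.869 CPM (n = 3) in Ager-/- neutrophils.

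Thbs3, a thrombospondin of the extracellular matrix, ends just before Muc1 begins and showed the same order at a lower level. Neutrophil libraries had 1.88, 2.16 and 1.55 CPM in WT, 1.07, 1.45 and 1.12 in Ager AHA/AHA, with 0.262, 0.608 and 0.463 CPM in Ager-/- mice, a log2 fold change of -2.07 ± 0.40 (SE) on 7 to 14 counts per Ager-/- library. In lung the Ager-/- libraries again lay above WT, at 100.2 ± 4.67 CPM (SD, n = 4) against 71.6 ± 13.2 CPM (n = 3). Mtx1, which encodes a mitochondrial import protein and overlaps Thbs3 on the other strand, was also looked up for its place and had 3.31 ± 0.461 CPM in WT and 2.05 ± 0.286 CPM in Ager-/- neutrophils (SD, n = 3 each). Slc50a1, a sugar transporter, and Dpm3, a subunit of dolichol-phosphate mannose synthase, on the far side of Krtcap2, had log2 fold changes of 0.39 ± 0.28 and 0.38 ± 0.41 (SE). The starts of Dpm3 and Slc50a1 lie 30.3 kb and 39.2 kb beyond that of Muc1, and their values did not share its direction. On the other side Scamp3, a vesicle protein gene chosen by place in the same way, had a log2 fold change of -0.11 ± 0.18.

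Over the 20 libraries, with log2 CPM centred within each tissue, the members most like Muc1 were Trim46 (Pearson r = 0.95) and Thbs3 (r = 0.86), and those most like Trim46 were Muc1 and Thbs3 (r = 0.90). These correlations, and those given below for Tpm3 and Bcan, share their libraries and scaling. They include the Ager-/- libraries by which these genes were chosen, so they are given only as a description.

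**Figure D2:**
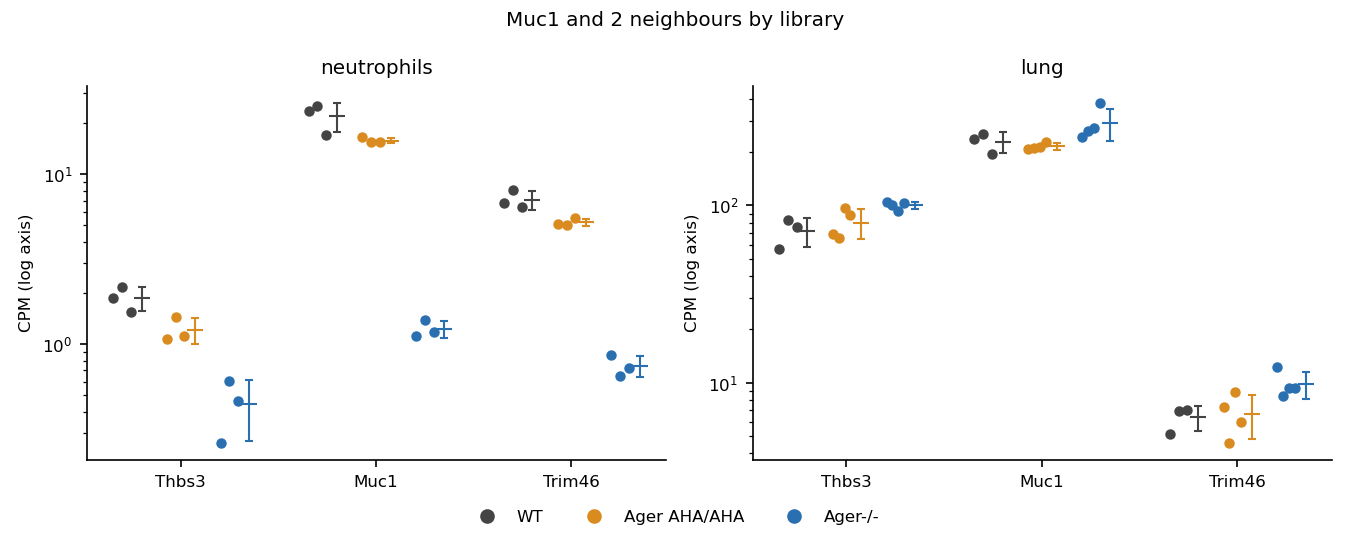
CPM (log axis) of Thbs3, Muc1 and Trim46 in each library, in neutrophils (left) and lung (right), with points for libraries and the mean with its SD beside them. The Ager-/- neutrophil libraries hold 1.12 to 1.39 CPM of Muc1 while the Ager-/- lung libraries hold 243 to 378 CPM.

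Tpm3 (90072649 to 90100902, plus strand) was lower in Ager-/- libraries of both tissues, and its copy Tpm3-rs7 was higher in the same libraries. In neutrophils Tpm3 stood at 1235, 968 and 874 CPM in WT, 985, 795 and 805 in Ager AHA/AHA, with 345, 415 and 433 CPM in Ager-/- libraries. In lung it stood at 495, 491 and 447 CPM in WT, at 411 to 536 CPM in Ager AHA/AHA and at 222 to 238 CPM in Ager-/- libraries. The Ager-/- groups did not overlap the others in either tissue, with log2 fold changes against WT of -1.37 ± 0.19 (SE) in neutrophils and -1.04 ± 0.10 in lung.

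Tpm3-rs7 had 75 to 106 counts in each WT or Ager AHA/AHA neutrophil library and 11603, 9398 and 7673 counts in the Ager-/- libraries. In lung it had 30 to 55 counts in each WT or Ager AHA/AHA library and 4902 to 5817 in Ager-/- libraries. Of the reads counted to either copy, Tpm3-rs7 took 0.492% ± 0.0964 in WT and 51.0% ± 4.20 in Ager-/- neutrophils (SD, n = 3 each), and 0.313% ± 0.0234 (n = 3) and 54.7% ± 1.02 (n = 4) in lung. The sum of the pair was 1031 ± 187 CPM in WT, 866 ± 108 in Ager AHA/AHA, with 809.9 ± 27.2 for Ager-/- (SD, n = 3 each). In lung the sum was 479 ± 26.7 CPM in WT (n = 3), 469 ± 51.8 in Ager AHA/AHA (n = 4), with 512 ± 10.1 for Ager-/- (n = 4). The sums lay much closer together than Tpm3 alone, but those of WT and Ager-/- did not overlap. In neutrophils they ran from 879 to 1240 CPM in WT and from 779 to 828 CPM in Ager-/- libraries. In lung the order was reversed, with 448 to 496 CPM in WT and 503 to 526 CPM in Ager-/- libraries.

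**Figure D3:**
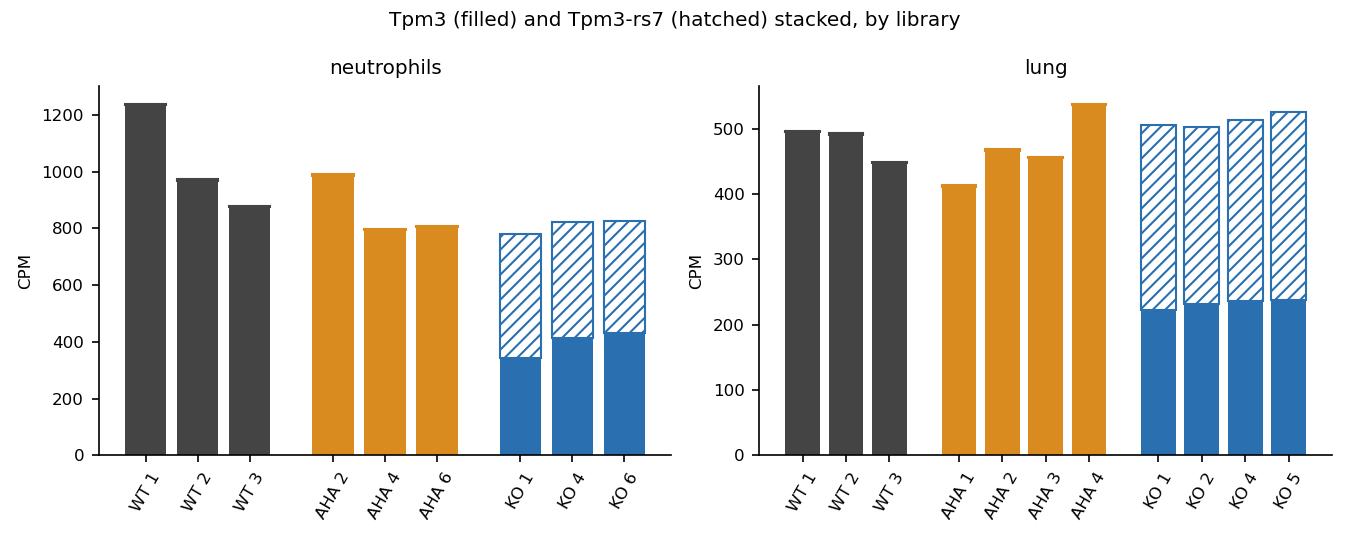
CPM of Tpm3 (filled) and of Tpm3-rs7 on chromosome 14 (hatched) stacked for each library in neutrophils (left) and lung (right). The copy takes 51.0% of the pair in Ager-/- neutrophils and 54.7% in Ager-/- lung, and under 1% elsewhere.

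The members most like Tpm3 over the 20 libraries were Scnm1 (r = 0.92), a splicing factor component, and Lysmd1 (r = 0.81), which adjoin each other on opposite strands. Scnm1 had 22.7, 21.9 and 23.5 CPM in WT lung, 22.1 to 24.0 CPM in Ager AHA/AHA lung and 12.8 to 14.2 CPM in Ager-/- lung, a log2 fold change of -0.76 ± 0.10 (SE). In neutrophils it was 4.58 ± 0.592 CPM in WT, 5.03 ± 0.424 in Ager AHA/AHA, with 2.92 ± 0.236 for Ager-/- (SD, n = 3 each). Scnm1 was thus lower in Ager-/- libraries of both tissues, with no overlap between the groups.

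Selenbp2 (94693556 to 94704413, plus strand) showed the largest fold change of the interval's genes in Ager-/- lung. It had 1.67, 2.15 and 1.97 CPM in WT, 3.01, 3.45, 2.95 and 3.92 in Ager AHA/AHA, with 35.4, 41.4, 32.7 and 43.9 CPM in Ager-/- lung libraries. The log2 fold change for Ager-/- against WT was 4.32 ± 0.17 (SE). Every Ager AHA/AHA library was also above every WT library, and this comparison, which the rule did not use, gave a log2 fold change of 0.80 ± 0.17 and an adjusted p of 0.17 in edgeR, which misses the threshold. Selenbp2 had 0 or 1 counts in each neutrophil library.

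Selenbp1 (94933056 to 94944758, plus strand), the neighbouring paralog, was the highest of the 164 genes per kilobase in WT lung, and its groups of libraries overlapped. Its lung levels were 1292 ± 117 CPM in WT (SD, n = 3), 1156 ± 203 in Ager AHA/AHA (n = 4) and 1097 ± 131 for Ager-/- (n = 4). Selenbp2 took 0.149% ± 0.0124 of the reads counted to the pair in WT, 0.292% ± 0.0571 in Ager AHA/AHA, with 3.38% ± 0.15 in Ager-/- lung. Because the coding sequences of the paralogs are nearly identical, reads may have been split between them, and this was not tested.

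Bcan (87987531 to 88000230, minus strand) was also higher in Ager-/- lung. Levels were 7.35, 7.19 and 6.77 CPM in WT, 7.70, 8.73, 11.3 and 5.77 in Ager AHA/AHA, with 25.9, 31.0, 23.0 and 24.1 CPM in Ager-/- libraries, a log2 fold change of 1.87 ± 0.19 (SE) against WT. Neutrophil libraries held 0 to 3 counts. The members most like Bcan were Selenbp2 (r = 0.94) and Pklr (r = 0.93), the pyruvate kinase of liver and red cells, which overlaps the channel gene Hcn3 on the other strand. Pklr had 0.668, 0.84 and 1.11 CPM in WT and 3.36, 2.76, 2.33 and 2.86 CPM in Ager-/- lung, with a log2 fold change of 1.69 ± 0.36. The WT and Ager AHA/AHA lung libraries overlapped for Bcan and Pklr, and the Ager-/- libraries lay above all of them.

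Further members were higher in Ager-/- lung without overlap. Tmod4, a tropomodulin that caps actin filaments, stood at 2.07 ± 0.601 CPM in WT (SD, n = 3) and 6.17 ± 0.729 in Ager-/- libraries (n = 4). Cgn, the tight junction protein cingulin, stood at 107 ± 15.3 CPM in WT and 181 ± 20.4 in Ager-/- lung. Kcnn3, a calcium-activated potassium channel, stood at 5.27 ± 0.517 and 9.37 ± 0.470 CPM. Tmem79 and Slc25a44 completed the list of non-overlapping genes with the largest positive values, at log2 fold changes of 0.48 ± 0.23 and 0.40 ± 0.12 (SE).

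**Figure D4:**
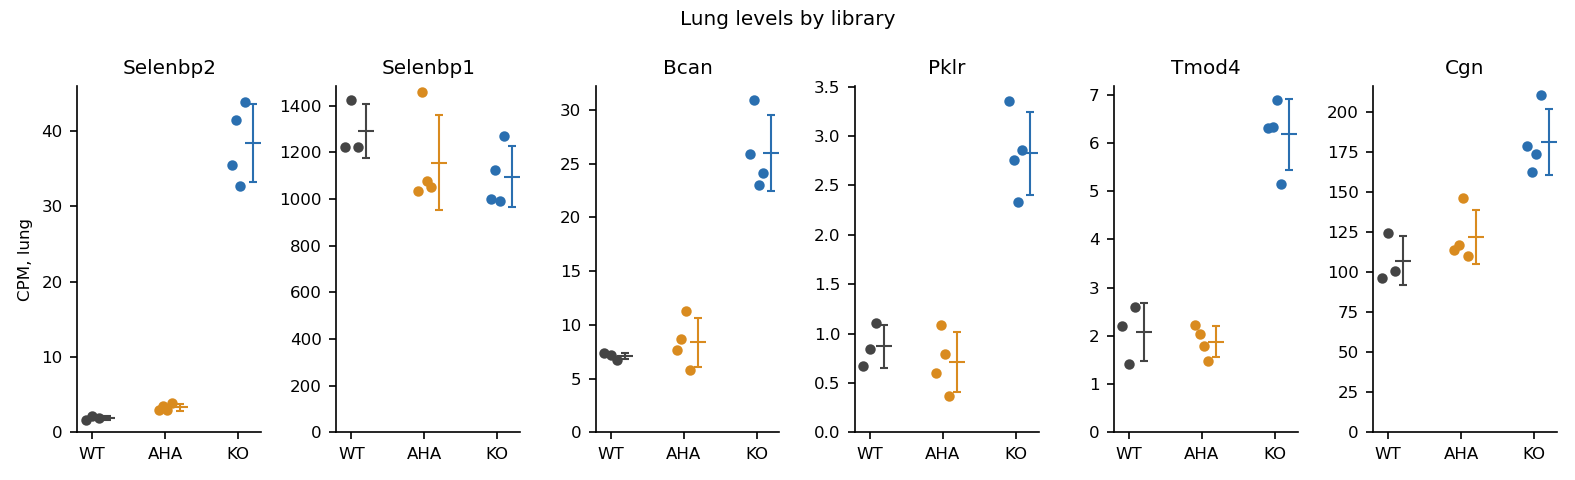
Lung CPM of Selenbp2, Selenbp1, Bcan, Pklr, Tmod4 and Cgn in each library (points) with the group mean and SD (bars beside them). For Selenbp2 the Ager-/- libraries lie at 32.7 to 43.9 CPM and all others at or below 3.92 CPM, while the groups of Selenbp1 overlap.

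Among the members at lower levels in Ager-/- lung, Paqr6, a membrane progestin receptor, had 6.31 ± 1.84 CPM in WT (SD, n = 3) and 2.89 ± 0.666 in Ager-/- lung (n = 4). Slc27a3, a fatty acid transport protein, had 13.0 ± 0.492 against 7.84 ± 1.00 CPM. The phospholipid flippase gene Atp8b2 had 42.5 ± 5.59 against 27.9 ± 0.473 CPM, and Pear1, a platelet endothelial receptor that overlaps Insrr and Lrrc71, had 35.8 ± 2.44 against 23.8 ± 1.52 CPM. Celf3, Car14 and BC028528 were further non-overlapping genes of this kind, with log2 fold changes of -0.78 ± 0.36, -0.40 ± 0.22 and -0.56 ± 0.16 (SE). In the same libraries 3 of 7 T cell markers were called lower in Ager-/- lung, with a summed level of 54.4 to 57.8 CPM in WT and 32.4 to 44.0 CPM in Ager-/- libraries, and 2 of 6 alveolar type 1 markers were called higher (2982 to 3652 against 4064 to 4662 CPM summed). The 9 macrophage markers summed to 769 to 881 CPM in WT and 513 to 720 CPM in Ager-/- lung, with none called. Their part in the values of these genes was not tested, and in whole tissue fewer cells of a type and less RNA per cell cannot be told apart.

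In Ager-/- neutrophils the member with the largest positive fold change, among those of at least 1 CPM whose groups did not overlap, was Ctsk, the collagen-degrading protease cathepsin K. It had 0.971, 1.30 and 0.388 CPM in WT and 5.20, 5.69 and 7.46 CPM in Ager-/- libraries, a log2 fold change of 2.79 ± 0.39 (SE). Slc27a3 was higher in Ager-/- neutrophils (2.37 ± 0.652 against 7.91 ± 2.10 CPM, SD, n = 3 each), the opposite of its order in lung. Npr1, the receptor for natriuretic peptide, had 1.497 ± 0.672 against 4.20 ± 1.17 CPM. Sh2d2a, a T cell adapter, had 3.29 ± 0.659 against 6.58 ± 1.66 CPM, and Fcrl1, a B cell surface receptor, 3.18 ± 0.428 against 6.06 ± 2.13 CPM. Lmna, the gene of the nuclear lamins A and C, had 8.80 ± 2.93 against 17.1 ± 2.61 CPM. Ubqln4, Hdgf, Ilf2 and Etv3 had log2 fold changes of 0.97 ± 0.30, 0.81 ± 0.25, 0.66 ± 0.31 and 0.77 ± 0.19. The summed T cell markers moved with these genes (10.6 to 12.6 CPM in WT, 24.1 to 47.5 CPM in Ager-/- neutrophils, 5 of 7 called higher), as did the macrophage markers (399.6 to 495 against 559 to 658 CPM, 4 of 9 called higher), while the 5 fibroblast markers had none called and summed to 5.94 to 229 CPM in WT and 37.7 to 65.7 CPM in Ager-/- libraries, and the 5 B cell markers summed to at most 0.411 CPM in every neutrophil library. The 6 alveolar type 1 markers summed to 27.4 to 35.5 CPM in WT and 41.0 to 59.0 CPM in Ager-/- neutrophils, with 1 of the 3 tested called higher. The part of these markers in the values was not tested.

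Below Muc1, Trim46, Thbs3 and Tpm3, the lower members in Ager-/- neutrophils included Creb3l4, a transcription factor anchored in the endoplasmic reticulum (2.02 ± 0.548 in WT against 0.706 ± 0.200 CPM, SD, n = 3 each), Lysmd1, Nup210l, Mindy1 and Ube2q1. Their log2 fold changes were -1.49 ± 0.36 (SE) for Creb3l4, -1.23 ± 0.34 for Lysmd1, -0.96 ± 0.37 for Nup210l, -0.94 ± 0.19 for the deubiquitinase Mindy1 and -0.70 ± 0.16 for Ube2q1. In the same libraries the 10 neutrophil markers summed to 39602 to 55852 CPM in WT and 34206 to 35452 CPM in Ager-/- neutrophils, with 1 called lower. The 5 endothelial markers summed to 69.1 to 81.2 CPM in WT and 35.4 to 43.1 CPM in Ager-/- libraries, with 1 of the 2 tested called lower. Cldn5 stood at 0 in the neutrophils of every genotype, and Tek at 0 in those of Ager AHA/AHA and Ager-/-. Neither list overlapped between WT and Ager-/- libraries, and their part in the values of the lower members was not tested.

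The Ager-/- differences were set side by side between the tissues. Over the 116 members tested in both, the log2 fold changes against WT had Pearson's r of -0.13 (Spearman's rho -0.20). Without Tpm3 these were -0.19 and -0.23, and over all 10878 genes tested in both they were 0.21 and -0.07. Of the 116 members, 45 had the same sign (38.8%, against 47.4% of the 10878 genes). These figures run across genes, which share libraries within a tissue and are not independent replicates. Between Ager-/- and Ager AHA/AHA libraries, the count with an adjusted p under 0.05 was 4 of 118 members in neutrophils (0.533% of all genes) and 15 of 162 in lung (3.16% of all genes), and nothing is read from these counts, because the Ager-/- libraries chose the interval.

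The Ager AHA/AHA knock-in against WT is a comparison that the rule did not use, although it takes its WT libraries from the contrast that chose the interval and so is not wholly independent of that choice. In neutrophils 3 of 118 members rose (2.54%, against 1.80% of all genes tested) and 4 fell (3.39%, against 1.84%). The higher genes were Etv3, Ctsk and Nes, and the lower ones included Mef2d, Mindy1 and Prune1. The median log2 fold change was 0.02 over the members and 0.02 over all genes. The groups did not overlap for 30 members (25.4%), against 25% of all genes. The calls depended on single libraries: without WT replicate 1, Ager AHA/AHA replicate 4 or Ager AHA/AHA replicate 6, none of the 118 members was called, and without WT replicate 3, 2 were. DESeq2 called 12 members, and limma on log2(FPKM + 1) or log2(FPKM + 0.1) called 0, with adjusted p across all settings of 0.00032 to 0.41 for Mef2d. The share of all genes called in these settings is not given here, so their counts are not read as a trait of the interval.

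Etv3, an ETS-domain repressor of proliferation in macrophages, had 53.8, 74.9 and 54.8 CPM in WT against 88.7, 111 and 117 CPM in Ager AHA/AHA neutrophils. The groups did not overlap, and the log2 fold change was 0.79 ± 0.19 (SE, edgeR adjusted p = 0.034). Ctsk had 1.78, 2.00 and 4.02 CPM in Ager AHA/AHA libraries, above the 0.388 to 1.30 CPM of WT, with a log2 fold change of 1.58 ± 0.40 (edgeR adjusted p = 0.038). Nes, the intermediate filament protein nestin, had 0.324, 0.371 and 0.0555 CPM in WT against 0.891, 1.07 and 1.33 CPM in Ager AHA/AHA libraries, a log2 fold change of 2.14 ± 0.55 (edgeR adjusted p = 0.039) that rested on 1 to 6 counts in WT. The fibroblast markers, none of them called, summed to 16.7 to 20.1 CPM in Ager AHA/AHA libraries. Of the other lists, 3 of 9 macrophage markers and 1 of 7 T cell markers were called higher in the same comparison, with summed levels of 454.8 to 508 CPM and 16.3 to 28.8 CPM in Ager AHA/AHA libraries. Their part in the rise of these genes was not tested.

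Mef2d, a transcription factor of muscle, neurons and lymphocytes, fell in the Ager AHA/AHA neutrophils, and its levels in the Ager-/- neutrophils overlapped those of WT. It had 34.4, 25.8 and 39.9 CPM in WT, 17.6, 16.9 and 16.5 in Ager AHA/AHA, with 29.6, 25.3 and 34.8 CPM in Ager-/- libraries. The log2 fold change of Ager AHA/AHA against WT was -0.97 ± 0.19 (SE, edgeR adjusted p = 0.012). An antisense gene, 1700113A16Rik, overlaps Mef2d, and reads from the strands cannot be told apart here.

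Mindy1 and Prune1, a phosphatase gene, overlap at their ends on opposite strands. Mindy1 had 54.6, 41.8 and 46.8 CPM in WT against 28.8, 20.04 and 25.3 CPM in Ager AHA/AHA neutrophils (log2 fold change -0.95 ± 0.19, edgeR adjusted p = 0.015), and Prune1 had 8.09, 6.74 and 6.71 CPM in WT against 3.21, 2.77 and 3.86 CPM in Ager AHA/AHA libraries (-1.13 ± 0.24, edgeR adjusted p = 0.017). For both genes every Ager AHA/AHA library lay below every WT library. The endothelial markers summed to 33.0 to 56.9 CPM in Ager AHA/AHA neutrophils, also below WT, with neither of the 2 tested called, and their part in the lower values was not tested.

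The genes that chose the interval did not pass the test in this comparison. In neutrophils the log2 fold changes of Ager AHA/AHA against WT were -0.47 ± 0.18 for Muc1 (SE, edgeR adjusted p = 0.15), -0.43 ± 0.22 for Trim46 (edgeR adjusted p = 0.25) and -0.25 ± 0.18 for Tpm3 (edgeR adjusted p = 0.44). The libraries of Muc1 and Trim46 did not overlap between the genotypes, with Ager AHA/AHA on the lower side.

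**Figure D5:**
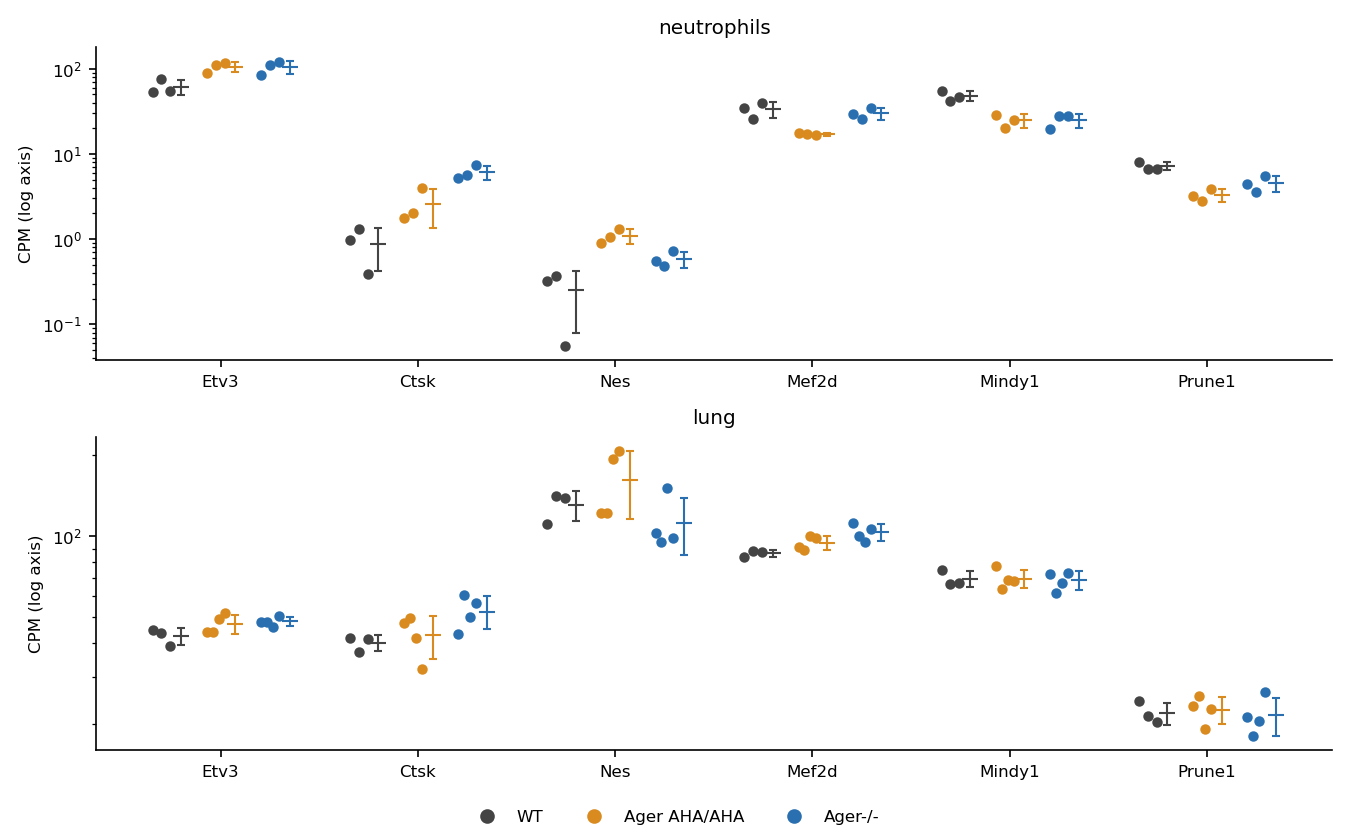
CPM (log axes) of 6 members called in Ager AHA/AHA against WT neutrophils, by library in neutrophils (top) and lung (bottom), with points for libraries and the mean with its SD beside them. In neutrophils all Ager AHA/AHA points lie on 1 side of the WT points, as for Mef2d at 16.5 to 17.6 against 25.8 to 39.9 CPM, and in lung the groups overlap for each of these genes except Mef2d.

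In lung none of the 162 members was called in Ager AHA/AHA against WT (0.172% of all genes tested), and DESeq2 called 0. An unadjusted p under 0.05 in edgeR was found for 5 of the 162 members and for 809 of all 17458 genes tested. The groups did not overlap for 12 members (7.41%, against 4.74% of all genes). The median absolute log2 fold change was 0.10 over the members and 0.13 over all genes tested.

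The difference of the knock-in effect between the tissues was tested in 1 fit of all 20 libraries. It was called for 5 of 164 members (3.05%, against 1.46% of all genes tested). The effect of the knock-in was higher in lung than in neutrophils for Prune1 (difference 1.08 ± 0.25 on the log2 scale, SE, edgeR adjusted p = 0.034), Mef2d (1.01 ± 0.19, edgeR adjusted p = 0.012) and Mindy1 (0.86 ± 0.20, edgeR adjusted p = 0.034). It was lower in lung for Ctsk (-1.59 ± 0.41, edgeR adjusted p = 0.049) and for Naxe (-0.94 ± 0.24, edgeR adjusted p = 0.045), the epimerase that repairs hydrated NADH. Naxe stood at 1.49, 2.10 and 1.44 CPM in WT against 3.21, 2.94 and 2.66 CPM in Ager AHA/AHA neutrophils, and at 136 ± 9.29 (SD, n = 3) against 131 ± 8.37 CPM (n = 4) in lung, so its groups did not overlap in neutrophils. The Mef2d call held without each of the 13 WT and Ager AHA/AHA libraries in turn, and the other calls held in 2 or 3 of these 13 fits.

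Lung and neutrophils of WT mice differed for most members, as for most genes, and the direction of many differences depended on the scaling between the tissues. The neutrophils came from a pouch injected with LPS and the lungs from mice with no treatment named. Tissue, LPS and preparation therefore cannot be told apart, here or in the difference of the knock-in effect. After TMM scaling over all 20 libraries, 90 of 164 members were higher in lung (54.9%, against 54.2% of all genes tested) and 46 were higher in neutrophils (28.0%, against 29.2%). The median log2 difference of lung over neutrophils was 0.83 over the members and 1.24 over all genes, and single values are to be read against that shift. The TMM factors were 0.324 to 0.462 in neutrophils and 2.06 to 2.22 in lung libraries. With library size alone, an alternative chosen after seeing the data, the medians were 3.33 and 3.72, and 145 members were higher in lung and 11 in neutrophils. Muc1 shows the size of this dependence, since its log2 difference was 1.01 ± 0.17 (SE, edgeR adjusted p = 4.1e-06) with TMM and 3.54 with library size alone. Neutrophils had 0 counts in all 9 libraries for 7 of the members.

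Most members of the epithelial list were higher in lung under each scaling tried. Cgn had 0 counts in the 3 WT neutrophil libraries and was at least 346-fold higher in WT lung on the TMM scale, with 3 counts over the neutrophil group as the floor. Rab25, a GTPase of epithelial recycling endosomes, was at least 112-fold higher and Fam160a1 at least 43.7-fold higher by the same floor. Efna1, the ephrin-A1 ligand of Eph receptors, had 47.2, 47.7 and 53.05 CPM in WT lung, scaled over all 20 libraries, and 1 count in 1 WT neutrophil library. Of the 9 epithelial members, 8 were higher in lung with TMM and none lower (54.2% and 29.2% of all genes), 8 were higher and Ecm1, a secreted matrix protein, was lower with RLE (51.4% and 31.2% of all genes), and all 9 were higher with library size alone (79.97% of all genes). Ecm1 was named after its values were seen, and its log2 difference stood at -0.19 with TMM, -0.40 with RLE and 2.32 with library size alone. The 3 ephrin-A ligands were all higher under all 3 scalings. Selenbp1 had 576, 668 and 581 CPM in WT lung and at most 1.10 CPM in a WT neutrophil library on the same shared scale, a log2 difference of 9.70 ± 0.35 (SE, edgeR adjusted p = 1.1e-18).

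Of the members higher in neutrophils, 11 were called so under all 3 scalings, among them Pglyrp4, Dennd4b, Adar, Sema4a, Crtc2, Ctss and Tpm3. With library size alone, 11 of 164 members were called higher in neutrophils, against 13.3% of all genes tested. The count is therefore not read as a trait of the interval. Pglyrp4, a peptidoglycan recognition protein, had 7.48, 6.94 and 7.95 CPM in WT neutrophils on the shared scale and 1 count over the 3 WT lung libraries. The log2 difference of lung over neutrophils was -6.66 ± 0.20 (SE, edgeR adjusted p = 5.6e-20) for Dennd4b, a regulator of Rab GTPases, and -4.14 with library size alone. It was -5.99 ± 0.23 (edgeR adjusted p = 3.6e-18) for Adar, which deaminates adenosine in double-stranded RNA and overlaps Chrnb2 on the other strand, and -3.48 with library size alone. The semaphorin Sema4a had -5.71 ± 0.18 (edgeR adjusted p = 1.1e-19) and -3.19.

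The lists of chromatin and immunity genes changed direction with the scaling. Of 16 chromatin and transcription genes 9 were higher in neutrophils and 2 in lung with TMM, against 2 and 14 with library size alone. Of 10 immunity genes 6 were higher in neutrophils and 3 in lung with TMM, against 2 and 4 with library size alone. Over all genes tested, 29.2% were higher in neutrophils and 54.2% in lung with TMM. With library size alone these shares were 13.3% and 79.97%. Trim46 stood at -2.51 ± 0.23 (SE) with TMM and 0.01 with library size alone, so no tissue order is given for it. Of 9 mitochondrial members 6 were higher in lung and 1 lower with TMM, 5 and 2 with RLE, and 9 and 0 with library size alone. With RLE, 51.4% of all genes were higher in lung and 31.2% lower. The median of the mitochondrial list lay below that of all genes under each scaling. It was 0.56 against 1.24 with TMM, 0.35 against 1.03 with RLE and 3.08 against 3.72 with library size alone. Nothing particular to this list is read from its counts. Naxe led the list, with a log2 difference of 3.99 ± 0.18 (edgeR adjusted p = 9.5e-17).

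Levels per kilobase set the order of the members within a tissue. In WT neutrophils Ctss, the cathepsin of antigen-presenting cells, led with 363 CPM per kilobase, followed by Tpm3 (169), Crtc2 (75.1), a coactivator of CREB, and Sema4a (67.6). In WT lung Selenbp1 led with 568 CPM per kilobase, followed by Naxe (150.3), Ctss (102) and Muc1 (97.3). The median member had 0.845 CPM per kilobase in WT neutrophils and 6.47 in WT lung.

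The remaining role lists showed few calls with the knock-in. Of 92 members placed in a role list, the lists of epithelial, mitochondrial, RNA-processing, lipid, proteasome and immunity genes had no member called in Ager AHA/AHA neutrophils. Calls came from, among others, the matrix and secreted list (Ctsk, 1 of 5 tested), the actin and GTPase list (Nes, 1 of 8) and the chromatin list (Etv3 higher and Mef2d lower, of 16). Over all genes tested 1.80% were called higher and 1.84% lower. With so few genes per list, nothing particular to a list is read from its calls or their absence. Among the most abundant members without a call, Ctss had 492 ± 146 CPM in WT and 511 ± 60.4 in Ager AHA/AHA neutrophils (SD, n = 3 each), and Il6ra, the interleukin-6 receptor, had 76.6 ± 13.7 and 48.0 ± 6.12 CPM with an adjusted p of 0.051. Il6ra shares its locus with the opposite-strand gene Gm42809.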

How the data were processed

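Gene expression was measured by RNA-seq of 9 neutrophil and 11 lung libraries. Per the submitters' notes the authors used CASAVA, fastp, STAR and featureCounts on mm10 and deposited raw counts per gene, and no source used here names their versions, the strand setting or the treatment of reads that match several genes. FPKM values deposited by the authors fell into 2 sets, since the ratio of counts per kilobase to FPKM, divided by the library's size factor, was 22.4 to 22.7 in 12 libraries and 16.7 to 17.8 in 8, and the reason was not tested. The authors' tables of fold changes and p-values were not used. Every count column was mapped to a sample by its name.

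The members and lists were chosen with earlier results of these data known. Counts were filtered with filterByExpr, scaled by TMM and fitted per tissue over the 3 genotypes with the robust quasi-likelihood test of edgeR 4.0.16 (R 4.3.3), and in 1 fit of all 20 libraries for lung against neutrophils and for the difference in knock-in effect. Benjamini-Hochberg adjustment ran over all genes tested, with the threshold at 0.05. The SE is the log2 fold change divided by the square root of F. Levels are means of CPM with the SD over libraries. Tissue comparisons used CPM scaled over all 20 libraries. For genes at 0, 3 counts over the group were the floor. Promoters came from RefSeq and coding sequences from GENCODE, matched by Python 3.11.15 scripts.

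The text names the genes of the rule with Selenbp1, the members called with the knock-in, the 10 largest differences in each direction among Ager-/- genes with no overlap and at least 1 CPM, the most abundant of each role list, the 4 largest tissue differences in each direction, the border genes and the members most like the rule's genes. Some genes that this rule takes are not reported here, although counts include them. Alternatives were RLE scaling, other filters, DESeq2 1.42.0, limma 3.58.1 on log2(FPKM + 1) and log2(FPKM + 0.1), a fold threshold, only the compared groups, a replicate block and leaving out each library. Leaving out overlapping genes, scaling by library size alone and adding the FPKM set as a term were chosen after seeing the data. Deviations of lung Ager AHA/AHA and Ager-/- libraries of the same number had correlations of 0.139, 0.117 and 0.167. Pairs of these genotypes with different numbers ran from -0.276 to 0.150, so the ranges overlapped. The numbers count as pairing for that description only, and whether these libraries were paired is not known.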

Additional observations from a re-analysis of the deposited data

Results flagged for a closer look

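In lung, 9 of the 151 groups of 4 libraries examined among named members held a library far from the other 3, where chance gives about 1 in 20. In Ager AHA/AHA replicate 1, Car14, a membrane carbonic anhydrase, stood at 17.3 CPM (nearest library 9.855) and Efna1 at 137.5 CPM (90.41). In Ager AHA/AHA replicate 2, Selenbp1 stood at 1460 CPM (nearest 1078) and Rab25 at 38.09 CPM (31.36). The proteasome gene Psmd4 stood at 100 CPM in Ager AHA/AHA replicate 3 (nearest 105.1). In Ager AHA/AHA replicate 4, Lmna stood at 196.5 CPM (nearest 146.4), Pip5k1a, a phosphoinositide kinase, at 54.75 CPM (45.03) and Naxe at 118.9 CPM (135.2). Nes stood at 151.1 CPM in Ager-/- replicate 4 (nearest 102.8).

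The effect of the knock-in differed between lung and neutrophils by the edgeR test of the difference for Mef2d (1.008 on the log2 scale, lung minus neutrophils), Prune1 (1.079), Mindy1 (0.8588), Ctsk (-1.591) and Naxe (-0.9445).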

How the results depend on the processing

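For the knock-in in neutrophils, 7 members were called, against 13 with no filter, 12 by DESeq2, 3 beyond the fold threshold, 4 with overlapping genes left out, 0 by limma on either FPKM scale and 0 with the replicate block. The difference in knock-in effect had 5 calls, against 3 with RLE scaling (3 higher, 0 lower), 11 with no filter, 17 by DESeq2, 2 without overlapping genes and 2 with library size alone. For Ager-/- against WT, the 19 calls in neutrophils became 4 with the replicate block, 10 by limma on either FPKM scale and 9 beyond the fold threshold, and the 12 in lung became 19 by DESeq2, 7 by limma on either scale and 6 beyond the fold threshold. For Ager-/- against Ager AHA/AHA, the 4 calls in neutrophils became 8 with no filter and 2 without overlapping genes, and the 15 in lung became 7 by limma on either scale, 6 beyond the fold threshold and 12 with the block. Lung against neutrophils had 136 calls and 62 without overlapping genes, and its split of 90 higher to 46 lower became 86 to 52 with RLE and 145 to 11 with library size alone. Library size alone was chosen after seeing the data. Except for the scalings of lung against neutrophils, the share of all genes called under an alternative is not given here. These counts therefore show how the calls depend on the setting and are not read as a trait of the interval. The cause was not tested, except that leaving out overlapping genes removes 92 members by construction. Over libraries left out in turn, calls ran from 0 to 10 (knock-in, neutrophils), 5 to 20 (Ager-/-, neutrophils, 5 without WT replicate 1), 6 to 14 (Ager-/-, lung, 6 without WT replicate 1) and 1 to 14 (difference in effect). Of 8812 values of named genes under alternatives, 8612 kept their direction and call, 112 lost the call, 40 gained it, 31 moved and 17 reversed. All 17 were log2 differences of lung over neutrophils, below 0 with TMM, and became positive with library size alone, by construction since that choice raises the median of all genes from 1.24 to 3.72 (1.03 with RLE): Trim46 0.0117, Fcrl1 0.1329, Pip5k1a 0.3115, Adamtsl4 0.3844, Arnt 0.6308, Mindy1 0.6999, Ubap2l 0.7206, Psmb4 1.0175, Creb3l4 1.0614, Slc25a44 1.1552, Ube2q1 1.2295, Tars2 1.3104, Clk2 1.4335, Mef2d 1.5112, Prune1 1.7733, Lysmd1 1.8508 and Cdc42se1 1.9509. In neutrophils WT shares 1 replicate number with each other genotype, so the numbers pair no comparison with WT there. The block rests on the numbers alone and leaves few libraries to compare within a number, so its lower counts in neutrophils are not read. In lung the numbers of WT and the other genotypes did not deviate together, and the block gave 0 calls for the knock-in and 10 for Ager-/-.

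Depth limits the low members: in neutrophils 57 of 164 averaged under 1 CPM and 7 had 0 counts in every library, so small differences in them could not be seen at this depth. Reads of overlapping genes and near-identical copies cannot be told apart here, and fewer cells of a type cannot be told from less RNA per cell.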
